A study of Rattus norvegicus with 4 samples.

Results

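The RGS (regulator of G protein signalling) genes were followed in neonatal rat ventricular cardiomyocytes exposed to phenylephrine (PE), an agonist of α1-adrenergic receptors. The members were the 10 genes Rgs2, Rgs3, Rgs4, Rgs5, Rgs6, Rgs10, Rgs12, Rgs14, Rgs16 and Rgs19, out of 13694 genes with an annotated open reading frame (ORF) in the deposited table. Each gene was represented by the annotated ORF with the most summed footprints, and these 10 ORFs were taken from 12 annotated ORFs listed for the genes. Ventricular cells of Sprague-Dawley rats were prepared at postnatal day 2, pre-plated to deplete other cell types and cultured with 10% serum. The PE group received 20 µM PE for 24 h, the control group was untreated, and each group had 2 ribosome profiling libraries, named PE replicates 1 and 2 and control replicates 1 and 2. Ribosome profiling counts short RNA fragments protected by ribosomes, so a value reflects the amount of mRNA and its translation together, and these were not separated here. Whether the replicates were grown as separate cultures is not in the labels, and the p-values therefore cover only variation between these libraries, which may be technical.

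RGS proteins bind activated G protein α subunits and speed up their hydrolysis of GTP, which shortens the signal from a receptor. The small members of the R4 subfamily (here Rgs2, Rgs4, Rgs5 and Rgs16) consist of little more than the RGS domain, and Rgs3, Rgs12 and Rgs14 carry it within longer proteins. In the heart, Rgs2 is known as a limiter of Gq signalling, the branch that α1-adrenergic, angiotensin and endothelin receptors use. Rgs6, of the R7 subfamily, is known for limiting muscarinic signalling through Gi and Go in pacemaker and atrial cells.

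Footprints on Rgs2 rose 3.54-fold in PE cells and those on Rgs6 were 2.37-fold lower. Smaller changes passed the test for Rgs19, which rose 1.36-fold, and for Rgs5, which was 1.28-fold lower. The Rgs5 call was lost when either of 2 libraries named below was left out. Rgs3, Rgs4, Rgs10, Rgs14 and Rgs16 did not pass, and Rgs12 had too few counts to be tested. Of the 9 members tested, 2 passed as higher and 2 as lower at an adjusted p under 0.05 (edgeR, quasi-likelihood F-test, Benjamini-Hochberg over 12609 ORFs). Of these 12609 ORFs, 21.4% passed as higher, 21.3% as lower and 42.7% in either direction. Over 1 annotated ORF per gene, 22.3% of 11286 passed as higher, 22.8% as lower and 45.2% in either direction, and the members' counts were close to these shares. The median log2 fold change of the 9 members was -0.0013, and that of all annotated ORFs tested was -0.0084.

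Stretches of sequence just before the gene start are shown for the 4 members that passed the edgeR test. Promoters of the genes called higher can thus be set beside those of the genes called lower. Rgs19 and Rgs5 did not pass in DESeq2 (adjusted p of 0.071 and 0.24). They are the 250 bases before the start of each gene from RefSeq on GRCr8, the build of the sequence table, whereas ORF positions below are on Rnor_6.0. All 10 members matched an entry. Capitals mark matches, on either strand, to any of 6 motifs searched. These were TATAAA of the TATA box, TGACG from the cyclic AMP response element, TGANTCA of AP-1 sites, CCAAT of the CCAAT box, GGAAA from NFAT sites, and the CArG box.
Rgs2 (higher in PE), chr13:58352667-58352916, minus strand: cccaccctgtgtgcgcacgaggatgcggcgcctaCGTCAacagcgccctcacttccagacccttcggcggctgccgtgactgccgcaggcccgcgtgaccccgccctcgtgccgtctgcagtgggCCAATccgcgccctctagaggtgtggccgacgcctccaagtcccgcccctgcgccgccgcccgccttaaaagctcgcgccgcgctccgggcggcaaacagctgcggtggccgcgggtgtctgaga
Rgs19 (higher in PE), chr3:189187288-189187537, minus strand: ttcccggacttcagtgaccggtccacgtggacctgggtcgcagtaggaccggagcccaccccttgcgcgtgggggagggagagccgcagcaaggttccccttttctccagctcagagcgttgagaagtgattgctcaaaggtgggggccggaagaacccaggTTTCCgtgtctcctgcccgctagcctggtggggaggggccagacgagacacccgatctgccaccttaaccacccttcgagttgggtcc
Rgs5 (lower in PE), chr13:84380827-84381076, plus strand: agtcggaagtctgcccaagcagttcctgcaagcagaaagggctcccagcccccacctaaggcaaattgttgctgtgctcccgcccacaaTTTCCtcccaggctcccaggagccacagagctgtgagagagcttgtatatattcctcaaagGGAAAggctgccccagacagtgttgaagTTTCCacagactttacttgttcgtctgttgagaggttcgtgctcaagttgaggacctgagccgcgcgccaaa
Rgs6 (lower in PE), chr6:107996245-107996494, plus strand: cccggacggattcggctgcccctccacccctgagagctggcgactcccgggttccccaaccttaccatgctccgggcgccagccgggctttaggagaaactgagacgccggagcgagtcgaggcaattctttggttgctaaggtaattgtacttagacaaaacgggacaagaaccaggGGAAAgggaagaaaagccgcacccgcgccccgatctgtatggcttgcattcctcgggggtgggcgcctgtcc
The Rgs2 stretch was rich in G and C at 72.4%, with 33 CpG dinucleotides, against a median of 51.2% and 5 CpG over 33469 promoters of the same length. All 10 members lay above both medians, from 54.4% (Rgs4 and Rgs5) to 77.6% G and C in Rgs10, which did not pass the test. The 33469 promoters were not limited to genes with an annotated ORF here, so the members were not compared with translated genes alone. The Rgs2 stretch held 1 TGACG match, on the opposite strand from -216 to -212 relative to the start, and 1 CCAAT match. CCAAT was also matched by Rgs4, with 2, and Rgs16, with 1. A TGACG match was present in 18.2% of all these promoters and a CCAAT match in 34.0%. The Rgs5 stretch held 3 GGAAA matches and those of Rgs6 and Rgs19 held 1 each, a motif present in 56.9% of all promoters. Among the other members, the stretches of Rgs3 and Rgs14, which did not pass the test, also held 1 GGAAA match each. Those of Rgs3 and Rgs4 each held 1 TATAAA match, present in 12.9% of all promoters, and 1 TGACG match. The CArG box was in none of the 10 and in 501 of the 33469 promoters, and TGANTCA was in that of Rgs12 alone among the 10 and in 6.34% of all. Each match is a description of letters in this window, and binding was not measured.

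Of the R4 subfamily, Rgs2 had the most footprints of all 10 members. Rgs2 (Rnor_6.0 chromosome 13, 60846507 to 60849061, minus strand, an ORF of 633 nt) had 1596 and 1618 footprint counts in the PE libraries, against 466 and 491 in the control libraries. As CPM, counts divided by library size after TMM scaling, these were 133 and 131 CPM in PE and 40.1 and 35.0 CPM in control. Both PE libraries lay more than 3 times above both control libraries, and the groups did not overlap. The mean was 132 ± 1.36 CPM in PE and 37.6 ± 3.62 CPM in control (SD, n = 2 each), a log2 fold change of 1.82 ± 0.06 (SE) with an adjusted p = 4.2e-22 (edgeR, quasi-likelihood). Among 11286 annotated ORFs tested, 0.753% had a larger log2 fold change, which put Rgs2 at rank 86 from the top. The same ORF had a log2 fold change of 1.82 and an adjusted p of 2.0e-85 in the authors' deposited table. Footprints cannot tell whether more cells carried Rgs2 or each cell carried more, for this gene or any below.

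Rgs4 and Rgs5 lie next to each other on chromosome 13, at 88057008 to 88061000 on the minus strand and 87966820 to 88002831 on the plus strand, with 54.2 kb between their ORFs. Rgs4, which acts on Gq and Gi subunits, had 22.9 and 22.1 CPM in PE and 24.6 and 22.4 CPM in control, from 272 to 314 counts per library. The groups overlapped, and the log2 fold change of -0.06 ± 0.10 (SE) did not pass, with a 95% interval of -0.27 to 0.16. Rgs5, widely used as a marker of pericytes, had 13.1 and 11.8 CPM in PE, against 18.7 and 13.6 CPM in control. The groups did not overlap, but control replicate 2 lay close to PE replicate 1. Its log2 fold change was -0.36 ± 0.14 (SE), with an adjusted p = 0.043 (edgeR, quasi-likelihood). That call was lost without control replicate 1 (log2 fold change -0.13, adjusted p = 0.60) and without PE replicate 2 (-0.28, adjusted p = 0.19), and DESeq2 gave an adjusted p of 0.24. Over its 14 alternatives the adjusted p of Rgs5 ran from 0.0012 to 1.

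Because Rgs5 marks pericytes, a list of 10 pericyte and smooth muscle markers was measured beside it, and all 10 had footprints. Their summed level was 2780 and 2814 CPM in the PE libraries and 2812 and 2850 CPM in the control libraries. Of the 10, 3 were higher and 6 lower, beside 22.3% higher and 22.8% lower over all annotated ORFs tested. On the log2 scale, Cnn1 stood at 2.19, Cspg4 at 1.03 and Mcam at 0.93. The 6 lower were Abcc9 (-1.22), Notch3 (-0.94), Myh11 (-0.84), Tagln (-0.83), Acta2 (-0.30) and Pdgfrb (-0.28). Kcnj8, at 0.12, did not pass. The part of these cells in the Rgs5 value was not tested.

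Rgs16 (chromosome 13, 71180078 to 71183522), a Gi and Gq regulator known as an inducible member of the family, had 5.02 and 6.34 CPM in PE and 3.88 and 5.21 CPM in control. The groups overlapped. Its log2 fold change was 0.31 ± 0.23 (SE), with an interval of -0.15 to 0.77, and did not pass. Rgs2, Rgs4, Rgs5 and Rgs16 thus all lie on chromosome 13, and of these 4 Rgs2 passed as higher, Rgs5 as lower and the other two did not pass.

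**Figure D1:**
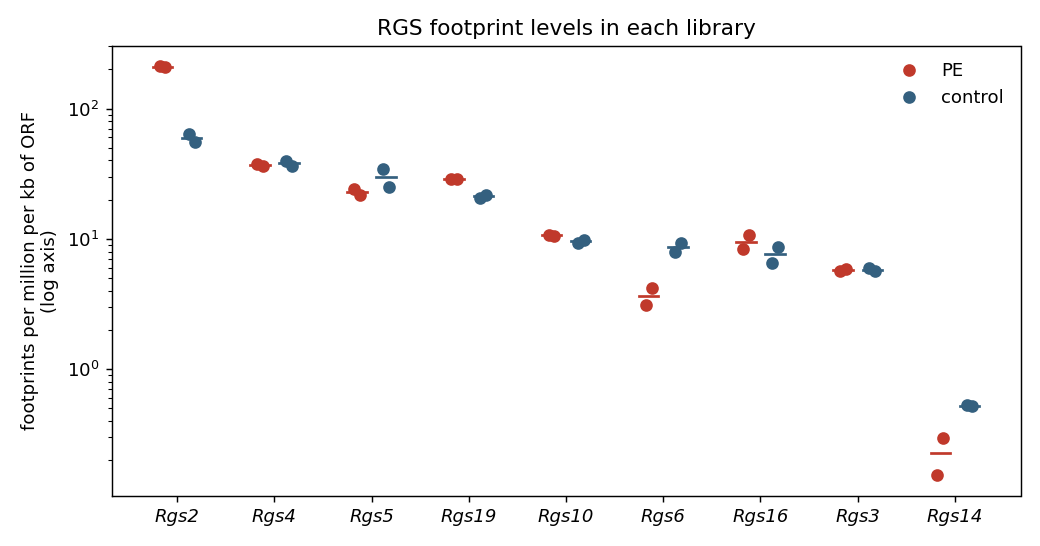
Footprint CPM per kilobase of ORF (vertical log axis) of 9 RGS genes in each library; points are libraries, short lines are group means (n = 2), PE left of control for each gene. Rgs2 stands at 208 and 211 in PE and 55.3 and 63.4 in control, and Rgs6 is lower in both PE libraries; Rgs12, with 5 counts in all, is left out.

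Rgs6 (chromosome 6, 106497158 to 106597834, plus strand, 1263 nt) had 47 and 65 counts in the PE libraries, against 117 and 164 in the control libraries. These were 3.93 and 5.28 CPM in PE and 10.1 and 11.7 CPM in control, and the groups did not overlap. The mean was 4.61 ± 0.957 CPM in PE and 10.9 ± 1.15 CPM in control (SD, n = 2 each), a log2 fold change of -1.24 ± 0.19 (SE) with an adjusted p = 1.6e-06 (edgeR, quasi-likelihood). A called decrease of at least 2-fold was found for 4.54% of annotated ORFs tested. Of the annotated ORFs tested, 2.96% had a smaller log2 fold change. The authors' deposited table gave the same ORF a log2 fold change of -1.24 with an adjusted p of 1.4e-04. Rgs6 protein works as a dimer with the Gβ5 subunit, whose gene Gnb5 was not analysed here.

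The remaining members regulate mainly Gi subunits or are longer proteins. Rgs19 (chromosome 3, 177197034 to 177199456), also called GAIP and a regulator of Gi subunits, had 18.7 and 18.5 CPM in PE and 13.4 and 14.0 CPM in control. The groups did not overlap and the replicates of each lay close together. Its log2 fold change was 0.44 ± 0.12 (SE), with an adjusted p = 0.0034 (edgeR, quasi-likelihood). DESeq2 gave it an adjusted p of 0.071, as did the authors' deposited table, so this call depended on the test. Over 14 alternatives its adjusted p ran from 0.0022 to 1, the highest in a test against a 1.5-fold change. Rgs10 (chromosome 1, 199782358 to 199823371), a Gi regulator abundant in immune cells and platelets, had 5.85 and 5.69 CPM in PE and 5.08 and 5.35 CPM in control. The groups did not overlap, but the log2 fold change of 0.14 ± 0.21 (SE) did not pass. Groups without overlap were seen for 6 of the 9 members, 3 higher and 3 lower, and for 70.3% of annotated ORFs tested, 34.5% higher and 35.8% lower.

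Rgs3 (chromosome 5, 78445989 to 78566521, 3432 nt) had 19.6 and 20.2 CPM in PE and 20.5 and 19.4 CPM in control. With overlapping groups and a log2 fold change of -0.0013 ± 0.11 (SE), its 95% interval ran from -0.23 to 0.22, and it did not pass. Rgs14 (chromosome 17, 9778883 to 9791552), a Gi regulator that also binds Ras and Rap GTPases, had 3 and 6 counts in PE and 10 and 12 in control. It passed the low-count filter through the control libraries, its log2 fold change of -1.19 ± 0.62 (SE) did not pass, and the interval ran from -2.46 to 0.08. Rgs12 (chromosome 14, 80975521 to 81053806, 4371 nt), the longest member, had 0 and 1 counts in PE and 2 and 2 in control.

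**Figure D2:**
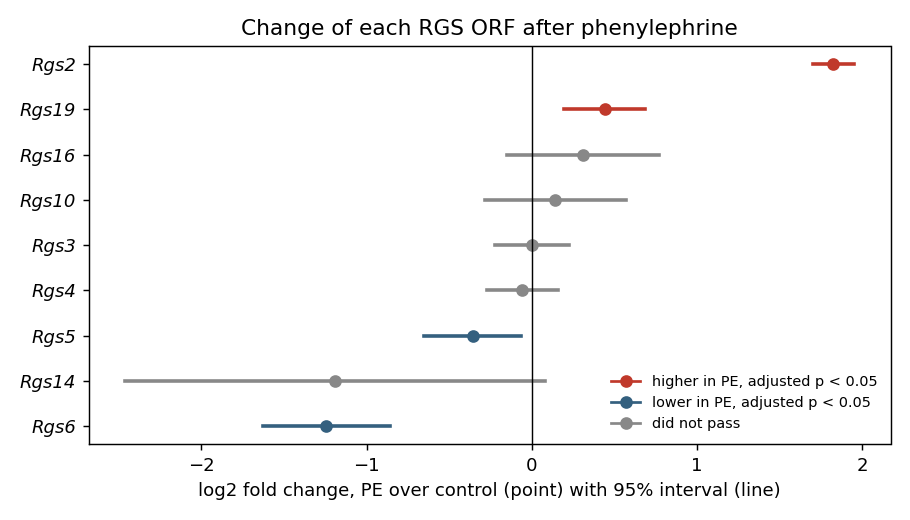
Log2 fold change of PE over control (horizontal axis) for the 9 RGS ORFs tested; points are edgeR estimates from 2 libraries per group and lines are 95% intervals. Rgs2 at 1.82 and Rgs6 at -1.24 lie farthest from 0 among those that passed, and the interval of Rgs14 is the widest.

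Counts and translated positions did not go together for Rgs12. For every ORF the authors' annotation counts P-sites by reading frame, not split by library, a P-site being where the peptidyl-tRNA of a footprinted ribosome sat. Rgs12 had 360 P-sites in the reading frame of its chosen ORF, covering 13.8% of codons, and 435 over all frames, but 0.0115 counts per P-site. A second annotated ORF of Rgs12, of 4161 nt, shares its genomic start codon position and had 361 in-frame P-sites and 0 counts. The other 9 members had 1.15 to 1.24 counts per P-site, near the median of 1.17 over annotated ORFs tested. Under 0.05 counts per P-site were found for 18.7% of 12824 annotated ORFs with at least 100 P-sites. P-sites per library are not given, so no PE or control level of Rgs12 is drawn from them.

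**Figure D3:**
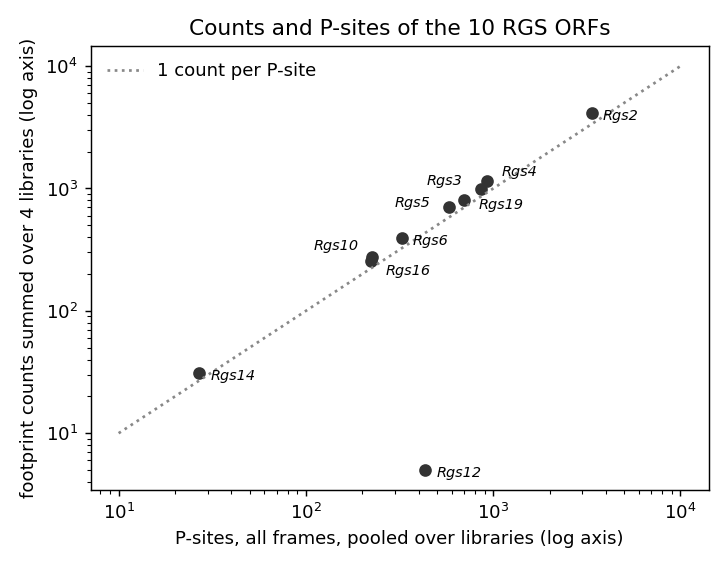
Footprint counts summed over the 4 libraries (vertical log axis) against P-sites in all frames pooled over libraries (horizontal log axis) for the 10 RGS ORFs; the dotted line marks 1 count per P-site. Rgs12, at 5 counts and 435 P-sites, lies far below the line, and the other 9 lie just above it.

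The reading frame was as clear for RGS ORFs as for others. In-frame P-sites made up 71.1% (Rgs19) to 92.6% (Rgs14, from 27 P-sites) of all P-sites of an ORF, with a median of 84.2% over the 10 members and 84.2% over annotated ORFs tested. Rgs2 was the most completely covered member, with P-sites on 90.1% of its codons, followed by Rgs4 with 72.7% and Rgs5 with 64.4%. The table listed 0 upstream, downstream or other unannotated ORFs for the 10 genes. An upstream or overlapping upstream ORF was listed for 10.9% of genes with an annotated ORF. With only 10 genes, 0 with an upstream ORF is close to that share.

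Per kilobase of ORF, Rgs2 had the highest level of the family in both groups, at 209 ± 2.15 CPM per kb in PE and 59.4 ± 5.72 in control (SD, n = 2 each). In control cells Rgs4 (38.2 ± 2.47 CPM per kb), Rgs5 (29.9 ± 6.73) and Rgs19 (21.2 ± 0.592) followed, then Rgs10 (9.61 ± 0.348), Rgs6 (8.62 ± 0.907), Rgs16 (7.61 ± 1.58) and Rgs3 (5.81 ± 0.227). In PE cells Rgs19 stood above Rgs5, at 28.7 ± 0.214 and 23.1 ± 1.75 CPM per kb, and Rgs6 at 3.65 ± 0.758 stood below Rgs3 at 5.80 ± 0.139. Rgs3 had P-sites on only 15.3% of its codons, from 726 in-frame P-sites, whereas Rgs6 had them on 29.9%, from 284. If only part of the Rgs3 ORF was translated, its level per kb and its share of the family are understated, which was not tested. The libraries of neighbours in this order overlapped for Rgs10 and Rgs16 in PE and for Rgs6 and Rgs16 in control, and for no other neighbours. Over annotated ORFs tested, 93.8% had a lower level per length than Rgs2 in PE and 80.8% in control. For Rgs4 these shares were 71.6% and 72.9%, and for Rgs6 21.2% and 37.1%.

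The make-up of the family's length-scaled footprints differed between the groups mainly through Rgs2. Rgs2 made up 64.0% and 63.8% of the summed level of the 10 genes in the PE libraries, against 33.5% and 32.1% in the control libraries. The summed level was 329 and 326 CPM per kb in PE and 189 and 172 in control, and without Rgs2 it was 119 and 118 in PE and 126 and 117 in control. The summed level without Rgs2 overlapped between the groups. Within a library, Rgs2 exceeded Rgs4 by 5.66 and 5.78 times in PE and by 1.59 and 1.52 times in control. Rgs6 stood at 0.0835 and 0.116 times the level of Rgs4 in PE and at 0.200 and 0.254 times in control.

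**Figure D4:**
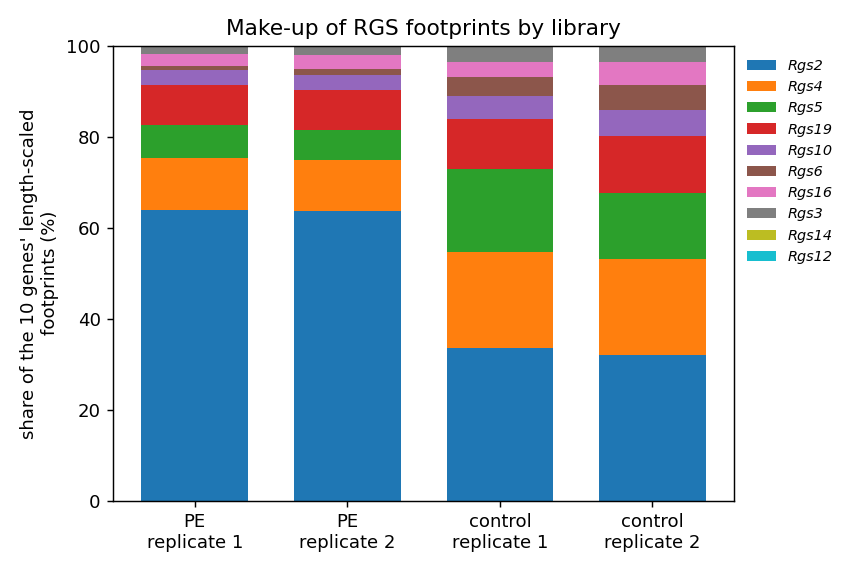
Share of each RGS gene in the summed footprints per kilobase of the 10 genes (vertical axis, percent) in each library, PE libraries left of control libraries. Rgs2 takes 64.0% and 63.8% in the PE libraries and 33.5% and 32.1% in the control libraries. Rgs12 and Rgs14 are too thin to see, and the share of Rgs12 rests on 5 counts in all, beside 435 P-sites.

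The small members were compared by protein sequence. From the deposited translations, Rgs4 (205 residues) and Rgs5 (180 residues) were identical at 52.8% of aligned positions, Rgs5 and Rgs16 at 51.7% and Rgs2 and Rgs16 at 51.4%. Rgs4, Rgs5 and Rgs16 have cysteine as their second residue, as do 1.07% of genes with an annotated ORF, and Rgs2 does not. In mammals these 3 proteins are known substrates of the arginine branch of the N-degron pathway, which starts from that cysteine and uses the arginyltransferase Ate1 and the ubiquitin ligases Ubr1, Ubr2 and Ubr4. Ubr2 fell by 0.47 ± 0.03 on the log2 scale (SE; 200 ± 1.08 CPM in PE and 277 ± 1.06 CPM in control), Ubr4 by 0.12 and Ubr1 by 0.17, and Ate1 had -0.14 and did not pass. The G protein modulator Gpsm3, with 38 counts in all, passed the low-count filter through the control libraries and fell by 1.79. Ubr1, Ate1 and Gpsm3 were named after their values were seen, and DESeq2 did not call Ubr1 (adjusted p = 0.090) or Gpsm3 (adjusted p = 0.18). Of the whole list of RGS partners and G protein modulators, 0 of 11 tested genes were higher and 4 lower. Over all annotated ORFs tested, 22.3% were higher and 22.8% lower. At an unadjusted p under 0.05 the list had 0 higher, and DESeq2 called 0 higher and 2 lower. Protein levels were not measured.

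The ORFs most like Rgs2 and Rgs6 over the 4 libraries were sought among 8102 annotated ORFs of other genes with a mean count of at least 100, by Euclidean distance between log2 CPM values centred on each ORF's mean. With 2 groups, this measure mostly reflects the size of the change. Among the closest to Rgs2 were Ppp2r2b, a regulatory subunit of protein phosphatase 2A (distance 0.107), and Nppa, the precursor of atrial natriuretic peptide (0.119). Ppp2r2b had 16.4 and 15.3 CPM in PE and 4.82 and 4.42 CPM in control, a log2 fold change of 1.78. Closest to Rgs6 were Nrep (0.035), Slamf6, a receptor of lymphocytes (0.050), and Gpm6a, a membrane glycoprotein of neurons (0.058), with log2 fold changes of -1.25, -1.24 and -1.27.

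The G protein subunits on which RGS proteins act were measured as lists, and the counts of each list below stand beside 22.3% higher and 22.8% lower over all annotated ORFs tested. Of 12 tested α subunits, 7 were higher and 0 lower, with a median log2 fold change of 0.26, beside -0.0084 over all annotated ORFs tested. At an unadjusted p under 0.05 the counts were 8 and 0, and DESeq2 called 4 higher and 0 lower. Gnao1, the Go subunit, had 173 ± 0.738 CPM in PE and 96.6 ± 1.00 CPM in control (SD, n = 2 each), a log2 fold change of 0.84 ± 0.04 (SE). Gnas, the Gs subunit, rose by 0.28 ± 0.02. The Gq family subunits Gnaq and Gna11, named after their values were seen, had log2 fold changes of 0.20 and 0.23 with edgeR adjusted p of 0.047 and 0.030, and DESeq2 called neither (0.28 and 0.22). Of 10 tested β and γ subunits, 3 were higher and 1 lower (2 and 1 in DESeq2). Gnb1 rose by 0.67, from only 0.179 counts per P-site, and Gnb3 fell by 1.94. Gng3, with 79 counts in all, passed the low-count filter through the PE libraries. It rose by 1.92, with 2.55 ± 0.0656 CPM in PE and 0.680 ± 0.256 CPM in control (SD, n = 2 each).

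Receptors upstream of RGS proteins moved in both directions. Of 18 tested Gq-coupled receptors, 5 were higher and 8 lower (3 and 6 in DESeq2), with a median log2 fold change of 0.09. The bradykinin receptor Bdkrb2 rose by 3.48 on the log2 scale and the protease-activated receptor F2rl1 by 1.81 ± 0.15 (SE), to 23.8 ± 4.01 CPM in PE, against 6.89 ± 1.58 CPM in control. The angiotensin receptor Agtr1a fell by 1.14 ± 0.05, with 59.9 ± 0.613 CPM in PE and 131 ± 5.03 CPM in control, and the lysophosphatidic acid receptor Lpar1 by 1.16 ± 0.07. Of 8 tested Gi-coupled receptors and channels gated by them, 2 were higher and 4 lower, with a median of -0.44. The muscarinic receptor Chrm2, which Rgs6 is known to oppose in the heart, had 117 ± 3.32 CPM in PE and 163 ± 0.775 CPM in control, a log2 fold change of -0.49 ± 0.04. Kcnj3, a subunit of the potassium channel opened by that receptor and named after its values were seen, fell by 2.02 ± 0.23, while its partner Kcnj5 had -0.15 and did not pass. The chemokine receptor Cxcr4 fell by 0.82, and the adenosine receptor Adora1 and the sphingosine phosphate receptor S1pr1 rose by 1.11 and 0.31.

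Of 15 tested effectors of Gq, 2 were higher and 3 lower (1 and 1 in DESeq2), with a median log2 fold change of -0.06. The inositol trisphosphate receptor Itpr3 rose by 0.70 and Itpr1 fell by 0.38, and the diacylglycerol kinases Dgka and Dgkz had log2 fold changes of 0.31 and -0.30, which passed in edgeR but not in DESeq2 (adjusted p of 0.15 and 0.19). Of 13 tested other proteins with an RGS domain, 2 were higher and 2 lower, with a median of 0.01. The receptor kinases Grk5 and Grk2 rose by 0.56 ± 0.10 and 0.35 ± 0.10 (SE). Arhgef11, a guanine nucleotide exchange factor with an RGS domain, fell by 0.29. DESeq2 did not call Grk2 (adjusted p = 0.068) or Arhgef11 (adjusted p = 0.23).

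**Figure D5:**
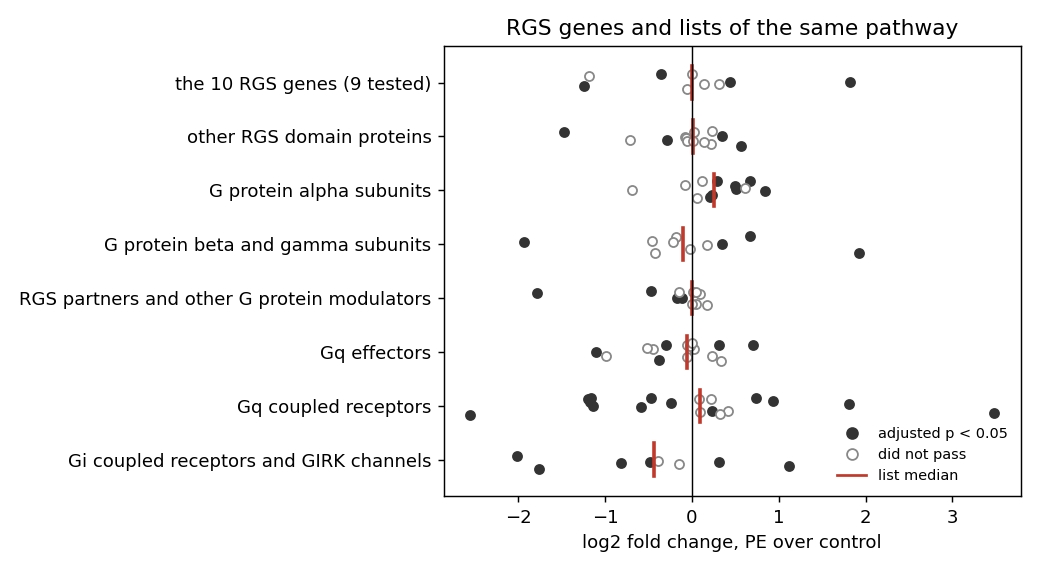
Log2 fold change of PE over control (horizontal axis) for the RGS genes and 7 pathway lists; each point is 1 gene, filled where the edgeR adjusted p was under 0.05, and red lines are list medians. The α subunits have a median of 0.26 with 7 of 12 called higher, and the receptor lists spread widely in both directions.

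Rgs1 and Rgs18, members of the R4 subfamily known mainly from leukocytes and platelets, lie on the same strand of chromosome 13 as Rgs2, with 218 kb between the ORFs of Rgs2 and Rgs1. Rgs1 had 32 and 19 counts in PE, against 68 and 82 in control, and fell by 1.47 ± 0.27 on the log2 scale (SE; edgeR adjusted p = 4.0e-05). Rgs18 had 23 and 16 counts in PE and 26 and 42 in control and did not pass. All 10 leukocyte markers had footprints, with a summed level of 385 and 386 CPM in PE and 590 and 581 CPM in control. Of them 0 were higher and 8 lower in edgeR, also 0 higher at an unadjusted p under 0.05, and 0 higher and 7 lower in DESeq2. The part of leukocytes in the values of Rgs1, Rgs10, Rgs18 and Rgs19 was not tested.

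The libraries held 12117629 and 12537740 footprints in PE and 11446574 and 13827599 in control. Cardiomyocyte markers summed to 67995 and 68486 CPM in PE and 62029 and 62137 CPM in control, with 9 of 10 markers listed, of which 2 were higher and 7 lower. Without Nppa, left out after its values were seen, the sum was 50244 and 50616 CPM in PE and 57056 and 57312 CPM in control. The direction of the counted sum thus turned. Myh6, lower in PE, had only 0.190 counts per P-site and Myh7 0.664, beside a median of 1.17 over annotated ORFs tested. Both sums therefore hold too few footprints of these genes, and the direction with all of them counted is not known. Fibroblast markers were also abundant, at 29066 and 29466 CPM in PE and 39315 and 39596 CPM in control (2 higher and 6 lower of 9 tested). Endothelial markers summed to 572 and 585 CPM in PE and 674 and 674 CPM in control (1 higher and 4 lower of 9). The fibroblast marker Col1a2 had 2 counts in all, at 1.26e-05 counts per P-site, and Fbln1 had 0.0939. The endothelial Kdr had 0.276 and Mcam, in the pericyte and smooth muscle sum above, 0.0446. These sums therefore understate their lists. The libraries therefore held footprints of other cell types besides cardiomyocytes.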

How the data were processed

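Ribosome-protected fragments were made with RNase I in the presence of cycloheximide, per the labels' protocols. Tools named in the submitters' processing notes are STAR 2.4.2a, Bowtie 1.1.2 and cutadapt 2.0, with the build Rnor_6.0. For the ORF caller and the counting program, no name is given in the sources used here. Raw counts per ORF were deposited by the authors, and, per the file headers, an annotation with their DESeq2 log2 fold changes and p-values, P-site counts and the percent of codons with a P-site. Unused per-sample columns numbered 0.

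Counts of 18847 ORFs were filtered (filterByExpr), TMM-scaled (factors 0.982 to 1.02) and compared with edgeR 4.0.16 under R 4.3.3 (quasi-likelihood, robust option), PE against control, 2 libraries each, without a replicate term. P-values of all 12609 ORFs were adjusted together (threshold 0.05). The SE of a log2 fold change is its size divided by the root of F. DESeq2 1.42.0 was an alternative. The code was tested on simulated counts. The common biological coefficient of variation was 2.18%, and replicates differed beyond sampling noise (chi-square per degree of freedom 1.60 in PE, 1.62 in control). Proteins were aligned globally with Biopython 1.88.

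Members and lists were chosen with earlier results of these data known. Named were all members, up to 2 called genes per direction and list with the smallest p, and the 3 ORFs most like each member called with at least a 2-fold change, of which 1 is not reported here.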

Additional observations from a re-analysis of the deposited data

Results flagged for a closer look

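Rgs12 had 360 in-frame P-sites in the deposited annotation, a signal outside the footprint counts compared, where its ORF had 5 counts in all. The P-sites are not split by library, so no PE or control value can be given.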

How the results depend on the processing

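In 14 alternatives, Rgs2 stayed higher (log2 fold change 1.72 to 1.91) and Rgs6 lower (-1.47 to -1.05), both past the threshold each time. DESeq2 called 1712 ORFs higher and 1705 lower, with 1 member higher and 1 lower; a test against a 1.5-fold change called 459 and 550, with 1 member each. In both, Rgs19 and Rgs5 lost their calls. Scaling by library totals alone called 2333 higher and 3093 lower, against 2696 and 2690 with TMM, and the same number of members. Leaving out 1 library gave 2231 to 2351 ORFs higher and 2292 to 2403 lower, 2 members higher each time and 1 to 2 lower. Rgs3, with -0.0013, had 0.11 with the length trend removed and -0.0455 to 0.0326 over the fits that left out 1 library; Rgs4 had -0.1283 to 0.0026 over those fits. Both changed sign, Rgs3 without PE replicate 1 (0.021) or control replicate 1, Rgs4 without control replicate 1. None of these passed, and the cause was not tested. With the replicate number as a block, 2721 ORFs were higher and 2714 lower, and 2 and 2 members; the numbers are not said to pair libraries, and deviations of same-numbered libraries correlated at -0.0155. Removing 1 library leaves 1 in its group, assumed to vary like the other group. Low counts limit Rgs14, with 31 in all, and Rgs12, with 5 in all beside 435 P-sites over all frames.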
